A study of Mus musculus with 40 samples.

Results

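Nptx1, Sema7a and Cacna1i are 3 genes chosen by their measured counts, which were higher in TAK1-deleted (iCre) than in control (LacZ) cardiac fibroblasts treated with IL-1β or TNFα. They are 3 of 55414 genes in the count table and 3 of the 25210 genes with at least 10 counts over all libraries. The differences between iCre and LacZ with IL-1β or TNFα therefore describe how the genes were chosen and carry no test here. The other comparisons, without ligand or with bFGF or TGFβ, used 24 libraries that the choice did not use.

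Neuronal pentraxin 1, the product of Nptx1, is a secreted protein best known from excitatory synapses, where pentraxins gather AMPA-type glutamate receptors. Semaphorin 7A, the product of Sema7a, is anchored in the outer membrane by a lipid and signals through β1 integrins and plexin C1. It is known from axon growth, immune cells and fibrotic tissue. Cacna1i encodes the pore of a T-type calcium channel, a type that opens at low membrane voltage and is typical of thalamic neurons. TAK1 is a kinase that relays signals from the IL-1 and TNF receptors to NF-κB and the stress kinases.

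Fibroblasts were isolated from hearts of C57BL/6J mice with both Map3k7 alleles floxed (TAK1fl/fl). All groups carried the floxed alleles and an adenovirus with either LacZ or iCre under the CMV promoter, so that deletion of TAK1 and the presence of Cre cannot be told apart. The growth medium of all groups held bFGF before serum starvation. At passage 1 the cells were then left without ligand (CTRL) or treated over 24 h. The doses were 10 ng/ml for TGFβ and for TNFα, 15 ng/ml for IL-1β and 20 ng/ml for bFGF. There were 10 groups of 4 replicates, numbered 1 to 4, which the paper calls biological replicates and gives as male. The labels do not say which hearts they came from, so p-values measure the spread between these samples.

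The 40 libraries held between 25360947 and 66160732 counts on genes. Map3k7 was lower in iCre in every treatment, with log2 fold changes of −0.28 (CTRL) to −0.82 (IL-1β). The floxed part is a single exon, which encodes the ATP-binding site, and the counts include all other exons. This fell short of the threshold in CTRL and bFGF (edgeR adjusted p = 0.137 and 0.351) and passed it with a block for the replicate number (adjusted p = 0.00393 and 0.000409). In the library names the S numbers 1 to 20 belonged to LacZ and 21 to 40 to iCre. The labels do not say what these numbers are, and anything that went with them cannot be told apart from the virus. Library numbers 31 to 40 belonged to replicate 1, with 1 library per group, and 51 to 80 to replicates 2 to 4. Within the latter, Nptx1 in iCre against LacZ with TGFβ passed the threshold that it missed over all replicates (log2 fold change 2.29, adjusted p = 0.0222, with 0.718% of all genes called higher), and no other call of the 3 genes changed. All 10 fibroblast markers were expressed at a mean of at least 1 CPM (a gene's counts scaled to the library total, here after TMM scaling). Their summed level ran from 16163 to 60973 CPM over the libraries. Among 8 neuronal markers 2 reached a mean of 1 CPM, Tubb3 and Uchl1, and the neuronal nuclear marker Rbfox3 had 10 counts in all 40 libraries together. Markers of other cells were present too. The mural cell marker Rgs5 averaged 564 CPM, close to the fibroblast markers Ddr2 (572 CPM) and Thy1 (579 CPM). Among 3 cardiomyocyte markers Tnnt2 averaged 13.7 CPM and reached 115 CPM in 1 LacZ library without ligand, while Myh6 had 3 counts and Actc1 14 in all. Among 6 leukocyte markers the macrophage genes Lyz2, Csf1r and Adgre1 averaged 52.2, 6.46 and 2.32 CPM, and the T cell marker Cd3e had 0 counts. The glial marker S100b (5.24 CPM) exceeded a mean of 1 CPM, as did Cdh5 (2.43 CPM) of 2 endothelial markers and the mesothelial Msln and Upk3b (1.19 and 1.40 CPM) of 5 epithelial or mesothelial ones.

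The genes lie on separate chromosomes. Nptx1 (ENSMUSG00000025582) spans chr11:119538719-119547753 on the minus strand of GRCm38, with 5217 exonic bases in 5 exon blocks. Sema7a (ENSMUSG00000038264) spans chr9:57940112-57962865 on the plus strand, with 3298 exonic bases in 14 exon blocks. Cacna1i (ENSMUSG00000022416) spans chr15:80287238-80398279 on the plus strand, with 9862 exonic bases in 37 exon blocks. No other annotated gene overlaps any of them. Their transcripts are rich in GC, with 54.9% for Nptx1, 57.7% for Sema7a and 59.3% for Cacna1i against a median of 49.7% over 12300 expressed protein-coding genes.

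Promoter sequences are shown for Sema7a and Cacna1i because both genes rose with bFGF in LacZ fibroblasts, described below. They come from RefSeq (GRCm38.p6, plus strand), where 2 of the 3 genes matched an entry, all but Nptx1. The 250 bases before each annotated start, chr9:57939862-57940111 and chr15:80286988-80287237, are printed 5′ to 3′ with matches to any searched motif in capitals.
Sema7a: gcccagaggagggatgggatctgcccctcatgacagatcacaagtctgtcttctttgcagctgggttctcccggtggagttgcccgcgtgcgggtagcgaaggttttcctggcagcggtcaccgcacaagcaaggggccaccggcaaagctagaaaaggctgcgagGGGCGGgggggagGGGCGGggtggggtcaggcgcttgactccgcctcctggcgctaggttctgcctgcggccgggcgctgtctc
Cacna1i: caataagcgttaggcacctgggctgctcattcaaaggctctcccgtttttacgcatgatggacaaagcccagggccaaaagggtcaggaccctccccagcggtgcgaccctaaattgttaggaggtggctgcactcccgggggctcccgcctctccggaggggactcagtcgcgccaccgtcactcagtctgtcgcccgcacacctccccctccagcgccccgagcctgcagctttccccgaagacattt
The letters of 7 motifs were searched on both strands of the windows from 250 bases before to 50 bases after the start. The capitals in the Sema7a sequence are 2 GC boxes (GGGCGG), a motif that 35.7% of 32851 mouse promoters held. Neither promoter window held the searched letters for NF-κB (GGANTTTCC, in 1.25% of all promoters), AP-1 (TGANTCA, 7.81%), CRE (TGACGTCA, 1.79%), TATA box (TATAAA, 13.6%), ETS (CCGGAAG, 8.86%) or E-box (CACGTG, 7.15%). Each window held 23 CpG dinucleotides, against a median of 7 over all promoters.

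Nptx1 had the widest range of levels of the 3 genes. In LacZ fibroblasts without ligand its 4 libraries (replicates 1 to 4 in order, here and below) were at 2.48, 13.9, 2.87 and 3.89 CPM. With iCre and no ligand they were at 26.9, 147, 55.1 and 109 CPM. Every iCre library lay above every LacZ library, and replicate 2 was the highest in both. LacZ had a mean of 5.80 ± 5.46 CPM (SD, n = 4), and the iCre mean of 84.4 ± 53.8 CPM was 14.6 times as high.

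Under bFGF the LacZ libraries held Nptx1 at 26.5, 34.5, 74.2 and 53.6 CPM, and the iCre libraries at 112, 119, 456 and 325 CPM. The groups did not overlap, and replicates 3 and 4 were the highest in both. TGFβ gave the lowest mean within each virus group, at 0.221, 0.800, 1.42 and 1.10 CPM for LacZ, while iCre libraries had 0.661, 3.92, 3.63 and 8.99 CPM. Here the ranges overlapped, through replicate 1 of iCre.

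In IL-1β-treated LacZ cells the Nptx1 levels were 0.497, 0.896, 1.42 and 1.60 CPM, and iCre cells had 56.5, 174, 143 and 177 CPM. After TNFα, LacZ libraries held 1.05, 2.48, 1.91 and 1.44 CPM, whereas iCre libraries held 137, 454, 871 and 654 CPM. The groups did not overlap in either treatment, as for 11.1% (IL-1β) and 15.1% (TNFα) of all genes in this direction, and this is how the gene was chosen. The group means were 125-fold apart with IL-1β (1.10 ± 0.502 against 138 ± 56.2 CPM) and 307-fold apart with TNFα (1.72 ± 0.617 against 529 ± 312 CPM).

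Ordered by mean, Nptx1 fell from iCre with TNFα, bFGF, IL-1β and no ligand, through LacZ with bFGF, to LacZ without ligand, iCre with TGFβ and the LacZ groups with TNFα, IL-1β and TGFβ. Neighbours in this order overlapped, except that LacZ with bFGF lay above LacZ without ligand.

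Sema7a had a lower mean level over the 40 libraries than Nptx1 (31.4 against 106 CPM). Without ligand the LacZ libraries held 1.56, 4.06, 1.86 and 1.48 CPM of it, while iCre libraries held 9.0, 27.1, 8.29 and 20.3 CPM. Under bFGF the levels were 6.27, 15.4, 8.82 and 12.4 CPM for LacZ, while iCre had 24.3, 21.8, 67.8 and 108 CPM. The groups were apart in both treatments, with ratios of means of 7.20 and 5.18.

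Unlike Nptx1, Sema7a was not at its lowest with TGFβ. The TGFβ libraries of LacZ held 9.66, 5.08, 10.5 and 9.13 CPM, and those of iCre 21.1, 19.4, 40.0 and 92.2 CPM. The groups did not overlap, and iCre replicate 4 was the highest. The means were 8.58 ± 2.40 and 43.2 ± 34.0 CPM (SD, n = 4), a ratio of 5.03.

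In LacZ cells IL-1β left Sema7a at 1.06, 1.09, 0.819 and 1.57 CPM, and in iCre cells at 29.6, 56.4, 34.6 and 95.1 CPM. TNFα left it in LacZ cells at 0.373, 1.26, 0.553 and 1.02 CPM, and in iCre cells at 27.3, 154, 112 and 195 CPM. The means were 47.6-fold and 152-fold apart, again as the choice required. In the order of means all 5 iCre groups stood above all 5 LacZ groups, led by iCre with TNFα (122 ± 71.7 CPM). Neighbours in the order overlapped, except that LacZ with TGFβ lay above LacZ without ligand.

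Cacna1i was close to the detection limit in 4 of the 5 LacZ groups. A count of 0 allows up to 3 counts, which is 0.0453 to 0.118 CPM at these depths, and intervals and limits of this kind cover counting error only. Without ligand the LacZ libraries held 0, 6, 2 and 9 counts and the iCre libraries 18, 54, 41 and 91 counts. In CPM these were 0, 0.132, 0.0355 and 0.261 against 0.589, 1.65, 0.817 and 3.16, with no overlap.

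Cacna1i was well above that limit in LacZ with bFGF only. There the LacZ libraries held 3.14, 1.33, 5.67 and 9.0 CPM (53 to 301 counts), and iCre libraries with bFGF held 6.15, 1.69, 9.49 and 11.3 CPM. The ranges overlapped, although iCre was higher in each of the 4 same-numbered pairs, by 1.26 to 1.96 times. With TGFβ the LacZ libraries held 1, 0, 0 and 2 counts and the iCre libraries 1, 2, 5 and 8 counts. The summed counts, 3 against 16, gave a ratio of 6.32 after scaling to library size (95% exact interval 1.81 to 33.9).

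With IL-1β, Cacna1i had 0, 3, 2 and 1 counts in LacZ and 96, 98, 121 and 139 counts in iCre (1.79, 1.78, 2.08 and 3.72 CPM). With TNFα it had 2, 0, 3 and 7 counts in LacZ and 71, 74, 219 and 151 counts in iCre (1.81, 1.76, 4.26 and 4.90 CPM). The summed counts were 6 against 454 and 12 against 515. In contrast to the other 2 genes, iCre with TNFα was not the highest group of Cacna1i, since both bFGF groups had higher means (4.78 ± 3.33 CPM in LacZ and 7.17 ± 4.23 CPM in iCre, against 3.18 ± 1.64 CPM). These 3 groups overlapped.

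**Figure D1:**
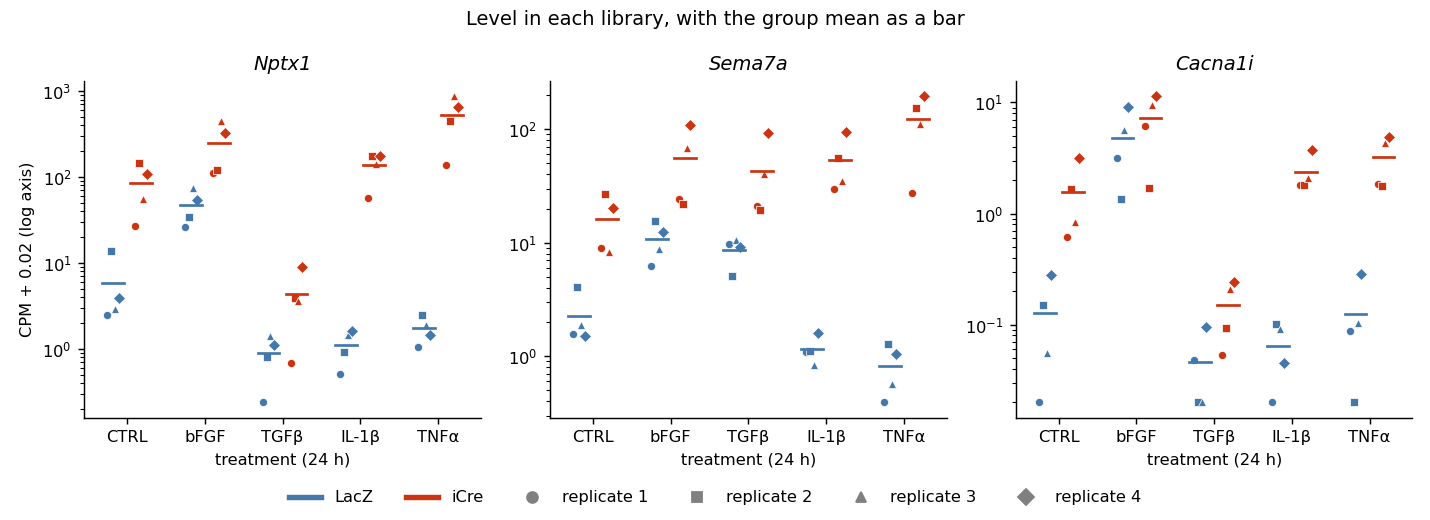
Level of Nptx1, Sema7a and Cacna1i in each of the 40 libraries, as CPM plus 0.02 on a log axis against treatment, with LacZ in blue, iCre in red, a symbol for each replicate number and a bar for the mean of 4 libraries. In CTRL, IL-1β and TNFα the iCre libraries of each gene lie above all LacZ libraries, and the groups overlap for Nptx1 with TGFβ and for Cacna1i with bFGF and TGFβ.

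Counts grow with transcript length, so levels of different genes are compared per kilobase of exon. In iCre with TNFα, Nptx1 was at 101 ± 59.8, Sema7a at 37.1 ± 21.7 and Cacna1i at 0.323 ± 0.166 CPM per kilobase (SD, n = 4). In LacZ without ligand they were at 1.11 ± 1.05, 0.680 ± 0.371 and 0.0109 ± 0.0119 CPM per kilobase. Cacna1i was the lowest of the 3 per kilobase in all 10 groups.

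The comparison of iCre with LacZ outside IL-1β and TNFα asks whether the higher level without TAK1 was seen in libraries that had no part in the choice. In CTRL the log2 fold changes were 3.86 (SE 0.69) for Nptx1, 2.84 (SE 0.47) for Sema7a and 3.91 (SE 0.85) for Cacna1i. All 3 fell short of an adjusted p of 0.05 in edgeR's quasi-likelihood test (0.0755, 0.0663 and 0.0924). That test called 0.0278% of all genes higher. With the replicate number as a block all 3 passed (adjusted p = 2.41e-09, 1.13e-07 and 6.45e-06), as did 6.79% of all genes. DESeq2 also called all 3, as it did 8.88% of the genes it gave an adjusted p. Each had an unadjusted p under 0.05 in edgeR, as did 14% of all genes. The 3 genes belonged to the 4.34% of genes whose iCre libraries all lay above all LacZ libraries in CTRL. Nptx1 and Sema7a belonged to the corresponding 3.27% with bFGF, and Sema7a to the 8.03% with TGFβ.

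Without replicate 2, where LacZ was high for both, Nptx1 passed in CTRL at a log2 fold change of 4.37 (adjusted p = 0.00286) and Sema7a at 2.92 (adjusted p = 0.0046), where 1.51% of all genes were called higher. Without replicate 1, 3 or 4 neither passed (adjusted p = 0.0838, 0.632 and 0.511 for Nptx1 and 0.0918, 0.527 and 0.511 for Sema7a). Those fits called 0.0317%, 0% and 0% of all genes higher, so a miss there says little of a single gene. Cacna1i passed in none of the 4. The summed level of 3 mural cell markers, nearly all of it from Rgs5, ran from 292 to 954 CPM in iCre and from 99.4 to 592 CPM in LacZ in CTRL, ranges that overlap. Its part in the result was not tested.

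In bFGF the log2 fold changes of iCre against LacZ were 2.42 (SE 0.49) for Nptx1, 2.36 (SE 0.51) for Sema7a and 0.58 (SE 0.62) for Cacna1i. None passed (adjusted p = 0.244, 0.26 and 0.746), in a test that called 0% of the 25210 genes. At an unadjusted p under 0.05 edgeR counted 2585 genes there (10.3%), Nptx1 and Sema7a among them, and DESeq2 called 481 genes (3% of those with an adjusted p), again with these 2. Without replicate 2 Nptx1 and Sema7a passed (adjusted p = 0.0407 and 0.0247, with 0.52% of all genes called higher). Without replicate 1, 3 or 4 neither did (0.339 to 0.874), in fits that called 0% of all genes higher. With the replicate block all 3 passed (adjusted p = 2.70e-11, 5.07e-06 and 0.01), as did 6.64% of all genes.

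With TGFβ, Sema7a rose by 2.30 (SE 0.48, adjusted p = 0.016) on the log2 scale in iCre over LacZ, and 2.51% of all genes were called higher. This call was lost without replicate 3 (2.45, adjusted p = 0.104) and without replicate 4 (1.63, adjusted p = 0.0595), where 0.0635% and 0.0833% of all genes were called higher. After a correction for GC content it was lost too (2.01, adjusted p = 0.0858). With the block it was kept, with the GC correction (adjusted p = 0.000121) and without it (9.72e-07). Nptx1 was 2.26 (SE 0.71) higher without passing (adjusted p = 0.0841) and passed with the block (1.42e-05), where 9.67% of all genes were called higher. Cacna1i, with 3 counts in LacZ, passed neither (adjusted p = 0.247 and 0.308).

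**Figure D2:**
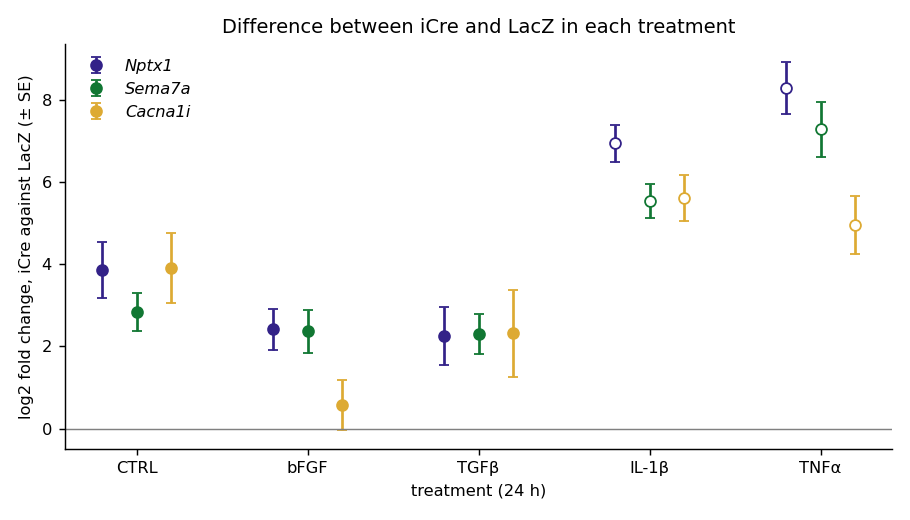
Log2 fold change of iCre against LacZ (y axis, ± SE from edgeR) in each treatment (x axis) for the 3 genes, with filled symbols for tested comparisons and open symbols for the 2 treatments that chose the genes. Fold changes outside IL-1β and TNFα lie between 0.58 (Cacna1i, bFGF) and 3.91 (Cacna1i, CTRL).

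Nptx1 and Sema7a were higher in iCre in 12 of 12 same-numbered pairs of CTRL, bFGF and TGFβ libraries, a pattern that 3.89% of all genes shared. Cacna1i was higher in 4 of 4 pairs in CTRL and with bFGF, but its TGFβ pairs of 1 and 1 counts and of 0 and 2 counts are too low to give a direction. With the pairs of IL-1β and TNFα, which the choice used, it was 20 of 20 pairs for Nptx1 and Sema7a, as for 2.5% of all genes. The fitted log2 fold changes with IL-1β and TNFα were 6.93 and 8.28 for Nptx1, 5.53 and 7.28 for Sema7a and 5.62 and 4.95 for Cacna1i. The same comparisons called 7.14% (IL-1β) and 14.8% (TNFα) of all genes higher, and nothing is read from this. The 10 fibroblast markers summed to less in iCre, without overlap, in both treatments. With IL-1β they were at 37139 to 60973 CPM in LacZ and 23970 to 35363 CPM in iCre, and with TNFα at 26350 to 33353 and 16163 to 24381 CPM. The 3 mural markers summed to 244 to 738 CPM in LacZ and 393 to 871 CPM in iCre with IL-1β, and to 62.7 to 356 and 291 to 1119 CPM with TNFα. The 3 cardiomyocyte markers with IL-1β summed to 0.330 to 1.63 CPM in LacZ and, without overlap, to 2.05 to 16.4 CPM in iCre. With TNFα their ranges overlapped (0.893 to 6.41 and 0.509 to 20.5 CPM). The part of these markers in the level of the 3 genes was not tested, and in bulk RNA fewer cells of a type and less RNA per cell cannot be told apart.

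The ligands were then compared with CTRL within each virus group. The growth factor bFGF raised all 3 genes in LacZ fibroblasts, a comparison that called 7% of all genes higher. Cacna1i rose by 5.57 (SE 0.85, edgeR adjusted p = 0.00407) on the log2 scale, Nptx1 by 3.05 (SE 0.57, adjusted p = 0.0092) and Sema7a by 2.28 (SE 0.38, adjusted p = 0.00586). The ratios of mean CPM were 44.6, 8.15 and 4.78, and for each gene every bFGF library lay above every CTRL library (9.44% of all genes). The calls depended on single replicates, as did the share of all genes called. Without replicate 3 all 3 missed the threshold (adjusted p = 0.0606 for Cacna1i, 0.0882 for Nptx1 and 0.0621 for Sema7a), where 0.881% of all genes were called higher. Without replicate 4 Nptx1 and Sema7a missed it (0.0896 and 0.064), where 1.69% of all genes were called higher. With the replicate block all 3 passed, as did 14.2% of all genes. The 10 fibroblast markers summed to 34475 to 49835 CPM in CTRL and 25916 to 31635 CPM with bFGF in LacZ, without overlap. The 4 glial markers summed to 11.8 to 16.9 and 5.54 to 10.3 CPM, again without overlap. The part of these markers in the result was not tested.

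In iCre fibroblasts, the log2 fold changes with bFGF were 1.59 (SE 0.58) for Nptx1, 1.79 (SE 0.57) for Sema7a and 2.22 (SE 0.64) for Cacna1i. None passed (adjusted p = 0.199, 0.144 and 0.113), in a test that called 1.79% of genes higher. Each had an unadjusted p under 0.05, as did 16.7% of all genes, and DESeq2 called all 3, as it did 11.7% of the genes with an adjusted p. With the replicate block all 3 passed (adjusted p = 0.00272, 0.00311 and 0.000961), as did 9.28% of all genes. Replicate 2 stood against the others, since bFGF was lower than CTRL there for Nptx1 (119 against 147 CPM) and Sema7a (21.8 against 27.1 CPM). Without it all 3 passed, at 2.23 (adjusted p = 0.0243), 2.43 (0.0119) and 2.6 (0.0104), with 7.07% of all genes called higher. Without replicate 1, 3 or 4 none passed (adjusted p = 0.227 to 0.716), in fits that called 0% of all genes higher.

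TGFβ moved the genes in different directions. Nptx1 fell by 2.69 (SE 0.65, adjusted p = 0.0083) on the log2 scale in LacZ and by 4.26 (SE 0.71, adjusted p = 0.000766) in iCre. Cacna1i fell by 3.51 (SE 0.69, adjusted p = 0.00216) in iCre, from 204 to 16 summed counts. In LacZ it had 17 summed counts without ligand and 3 with TGFβ, and the difference did not pass (adjusted p = 0.246). The same comparisons called 19.3% (LacZ) and 18.8% (iCre) of all genes lower. The summed level of the 8 neuronal markers, nearly all of it from Tubb3 and Uchl1, was higher with TGFβ without overlap. In LacZ it was 62.7 to 117 CPM in CTRL and 141 to 291 CPM with TGFβ, and in iCre 33.5 to 97.0 and 146 to 278 CPM. Rbfox3 had no counts with TGFβ in either virus group. Other marker sums were lower with TGFβ without overlap in LacZ only. Glial markers were at 11.8 to 16.9 CPM in CTRL and 3.77 to 7.84 CPM with TGFβ. Cardiomyocyte markers were at 16.5 to 115 and 2.34 to 11.4 CPM, and epithelial or mesothelial ones at 3.23 to 4.27 and 0.981 to 1.82 CPM. The part of these markers in the results with TGFβ was not tested.

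Sema7a rose with TGFβ in LacZ, by 1.96 (SE 0.35, adjusted p = 0.0014), where 17.5% of all genes were called higher. In iCre it was 1.44 (SE 0.54) higher without passing (adjusted p = 0.0584, and 0.00667 with the replicate block, against 18.6% and 20.4% of all genes called higher). There iCre replicate 2 was lower with TGFβ than in CTRL (19.4 against 27.1 CPM), and without replicate 2 the gene passed at 2.06 (adjusted p = 0.00425, with 20% of all genes called higher), but not without replicate 1, 3 or 4 (0.0888, 0.192 and 0.215). The TGFβ calls of Nptx1 in both virus groups, of Sema7a in LacZ and of Cacna1i in iCre were kept without any single replicate, although the fall of Nptx1 in LacZ was 1.76 on the log2 scale without replicate 2.

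With IL-1β and TNFα, whose libraries the choice used, values are given without a test. In LacZ the mean of Nptx1 was lower than in CTRL by a factor of 5.26 with IL-1β and 3.37 with TNFα, and that of Sema7a by 1.98 and 2.80. Nptx1 was the lower with the ligand in 4 of 4 same-numbered pairs for both, with overlapping ranges for TNFα and none for IL-1β (12.6% of all genes). Sema7a was lower in 3 of 4 pairs with IL-1β, with overlapping ranges, and in 4 of 4 with TNFα, without overlap (13.2% of all genes). Of these values 3 leaned on replicate 2 of LacZ without ligand, the highest library for both genes. Without replicate 2 the log2 change of Nptx1 went from −2.36 to −1.38 with IL-1β and from −1.74 to −1.06 with TNFα, and that of Sema7a with IL-1β from −0.95 to −0.50. With TNFα Sema7a was at −1.48 with all replicates and −1.36 without replicate 2. The 10 fibroblast markers in LacZ summed to 34475 to 49835 CPM in CTRL and, without overlap, to 26350 to 33353 CPM with TNFα. Other sums in LacZ were also lower without overlap. Glial markers without ligand held 11.8 to 16.9 CPM, against 4.65 to 7.93 (IL-1β) and 4.39 to 6.83 (TNFα). Cardiomyocyte markers held 16.5 to 115 CPM, against 0.330 to 1.63 and 0.893 to 6.41. Epithelial or mesothelial ones held 3.23 to 4.27 CPM, against 0.930 to 1.98 (IL-1β). All other marker ranges overlapped with CTRL. The part of the markers in these values was not tested. In iCre the means were higher with these ligands, for Nptx1 by 1.63 and 6.26 times, for Sema7a by 3.34 and 7.56 times and for Cacna1i by 1.51 and 2.05 times. In each of these iCre comparisons the ligand library was the higher in 4 of 4 same-numbered pairs, but only the Sema7a groups did not overlap (11.9% and 14.5% of all genes).

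**Figure D3:**
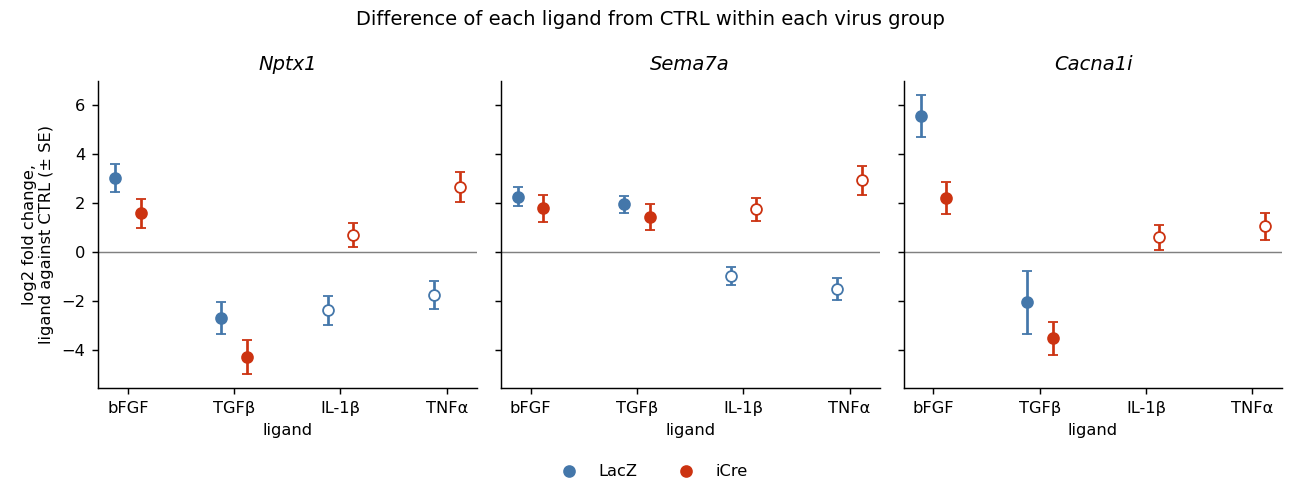
Log2 fold change of each ligand against CTRL (y axis, ± SE) in LacZ (blue) and iCre (red) for the 3 genes, with open symbols for IL-1β and TNFα, whose libraries the choice used. Cacna1i in LacZ with these 2 ligands is left out because its libraries held at most 9 counts. The plotted TGFβ point of Cacna1i in LacZ rests on fewer still, 3 summed counts against 17 in CTRL, and did not pass. With TGFβ Nptx1 and Cacna1i lie below 0 and Sema7a above 0.

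Whether the iCre effect differed between a ligand and CTRL was tested over 16 libraries. The log2 effect with bFGF minus that in CTRL was −3.35 (SE 1.12) for Cacna1i, −1.45 (SE 0.87) for Nptx1 and −0.48 (SE 0.73) for Sema7a. None passed (adjusted p = 1 for each), and 0% of the 25210 genes did, with 765 at an unadjusted p under 0.05 and 0 called by DESeq2. Cacna1i had an unadjusted p of 0.0088 and an adjusted p of 0.522 with the block, where again 0% of all genes were called. For TGFβ the difference was −1.59 (SE 1.03), −0.53 (SE 0.70) and −1.51 (SE 1.85) for Nptx1, Sema7a and Cacna1i, with adjusted p = 0.517, 0.818 and 0.793, where 4.51% of all genes were called.

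Other genes of the same families were followed to see what moved beside the 3 genes. Without the 3 genes, 44 members of 3 lists were tested: 7 pentraxins and AMPA receptor subunits, 22 semaphorins and Semaphorin 7A receptors, and 15 voltage-gated calcium channel subunits. Of these, 1 was called higher and 0 lower in iCre against LacZ in CTRL (0.0278% and 0.0476% of all genes), 0 with bFGF (10 at an unadjusted p under 0.05, against 10.3% of all genes, and 1 by DESeq2), and 2 higher and 4 lower with TGFβ (2.51% and 5.87%). With IL-1β 8 were higher and 5 lower (7.14% and 8.98% of all genes), and with TNFα 9 were higher and 10 lower (14.8% and 12.6%). With the replicate block 16, 21, 22, 29 and 24 of the 44 were called in CTRL, bFGF, TGFβ, IL-1β and TNFα, against 14.5%, 13.9%, 20.8%, 29.5% and 32.2% of all genes. Of the 6 called with TGFβ, namely Nptxr, Gria3, Itga1, Sema3d, Sema3f and Cacna2d1, 0 were called after a GC correction, 5 with that correction and the block, 3 without replicate 4, and 1, Gria3, without replicate 3. Of the 13 called with IL-1β 8 were called after the GC correction, 6 without replicate 4 and 4 without replicate 3 (Nptx2, Nptxr, Gria3 and Sema3c). The 5 lost after the GC correction were Nptxr, Gria3, Sema4b, Sema4c and Cacna1g. Of the 19 called with TNFα 13 were called after the GC correction, all but Gria3, Sema4b, Sema4c, Sema6b, Cacna1h and Cacnb4, 7 without replicate 3 and 9 without replicate 4. Nptx2, Nptxr, Ptx3, Gria3, Sema3a, Sema3c and Itga1 were the 7 without replicate 3. Fewer of all genes were called in these fits too. Without replicate 3 the tests called 0.0635% (TGFβ), 1.82% (IL-1β) and 6.38% (TNFα) of all genes higher. Without replicate 4 they called 0.0833%, 3.59% and 7.89% higher.

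Nptx2, the other secreted neuronal pentraxin, rose in iCre over LacZ with IL-1β (1.57 ± 0.577 to 10.6 ± 3.55 CPM, log2 fold change 2.73, SE 0.34, adjusted p = 0.000561) and with TNFα (0.575 ± 0.163 to 5.95 ± 2.25 CPM, 3.39, SE 0.34, adjusted p = 0.000182). Nptxr, the membrane-bound neuronal pentraxin, rose with TGFβ (0.79, SE 0.19, adjusted p = 0.0324), IL-1β (0.77, SE 0.14, adjusted p = 0.00395) and TNFα (1.44, SE 0.22, adjusted p = 0.00132). Ptx3, a long pentraxin of innate immunity, fell by 4.75 (SE 0.66) with TNFα, from 1327 ± 487 to 48.4 ± 41.8 CPM, and by 1.85 (SE 0.53) with IL-1β. The AMPA receptor gene Gria3 fell with all 3 ligands, by 0.55 to 0.90, each call being lost after the GC correction, and Gria4 fell with TNFα by 2.36 (SE 0.59). The short pentraxin Crp and the AMPA receptor gene Gria2 had fewer than 10 counts, and the short pentraxin Apcs had 0. Over the 7 genes, the median log2 fold change was 0.77 for IL-1β and −0.90 for TNFα, against 0.04 and 0 over all genes.

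Among the receptors of Semaphorin 7A, Itgb1, the β1 integrin subunit, was abundant and did not pass in any treatment (log2 fold changes of −0.41 to −0.26, 980 to 2367 CPM). Its partner Itga1 fell in iCre with TGFβ by 1.02 (SE 0.23, adjusted p = 0.0237) and with TNFα by 2.03 (SE 0.39, adjusted p = 0.00356). Plxnc1, plexin C1, was between 2.25 and 16.2 CPM and passed in none of the 5 treatments (log2 fold changes of −1.13 to 0.63). Of the other semaphorins, Sema3a, a secreted axon repellent, rose with IL-1β by 1.67 (SE 0.39) and with TNFα by 2.76 (SE 0.35), while the secreted Sema3c fell by 1.68 (SE 0.18) and 1.60 (SE 0.18). Sema4b was the only one called in CTRL (0.64, SE 0.08, adjusted p = 0.037). That call was lost without replicate 1, 3 or 4, where at most 0.0317% of all genes were called higher. Sema4b also rose with IL-1β and TNFα, as did Sema4c. Sema5a and Sema6b rose with TNFα, Sema4a fell with IL-1β, and with TGFβ Sema3f rose and Sema3d fell. The median over the 22 genes was 0.45 with IL-1β and 0.25 with TNFα.

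Of the other 2 T-type channel genes, Cacna1h rose in iCre with IL-1β (0.811 ± 0.356 to 2.66 ± 0.276 CPM, 1.70, SE 0.34, adjusted p = 0.0075) and TNFα (0.368 ± 0.268 to 1.23 ± 0.525 CPM, 1.75, SE 0.57, adjusted p = 0.0447). The TNFα call was lost after the GC correction, with or without the block, and without replicate 1, 3 or 4. Cacna1g rose with IL-1β (1.73, SE 0.51, adjusted p = 0.0425), from 8.17 ± 5.11 to 27.4 ± 18.4 CPM, a call lost after the GC correction and without replicate 3 or 4, and with TNFα was 1.16 (SE 0.60) higher without passing (adjusted p = 0.192). Per kilobase of exon, iCre with IL-1β held Cacna1g at 2.70 CPM, Cacna1h at 0.272 and Cacna1i at 0.238. The auxiliary subunit gene Cacnb2 rose with both cytokines (0.91 and 1.14). Cacna1a, Cacnb1, Cacnb3, Cacnb4 and the very low Cacna1e (0.0928 to 0.00811 CPM) fell with TNFα, Cacna1d with IL-1β and Cacna2d1 with TGFβ. The Cacna1e call was lost with the replicate block and when any single replicate was left out. Over the 15 genes the median was 0.39 with IL-1β and −0.39 with TNFα.

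**Figure D4:**
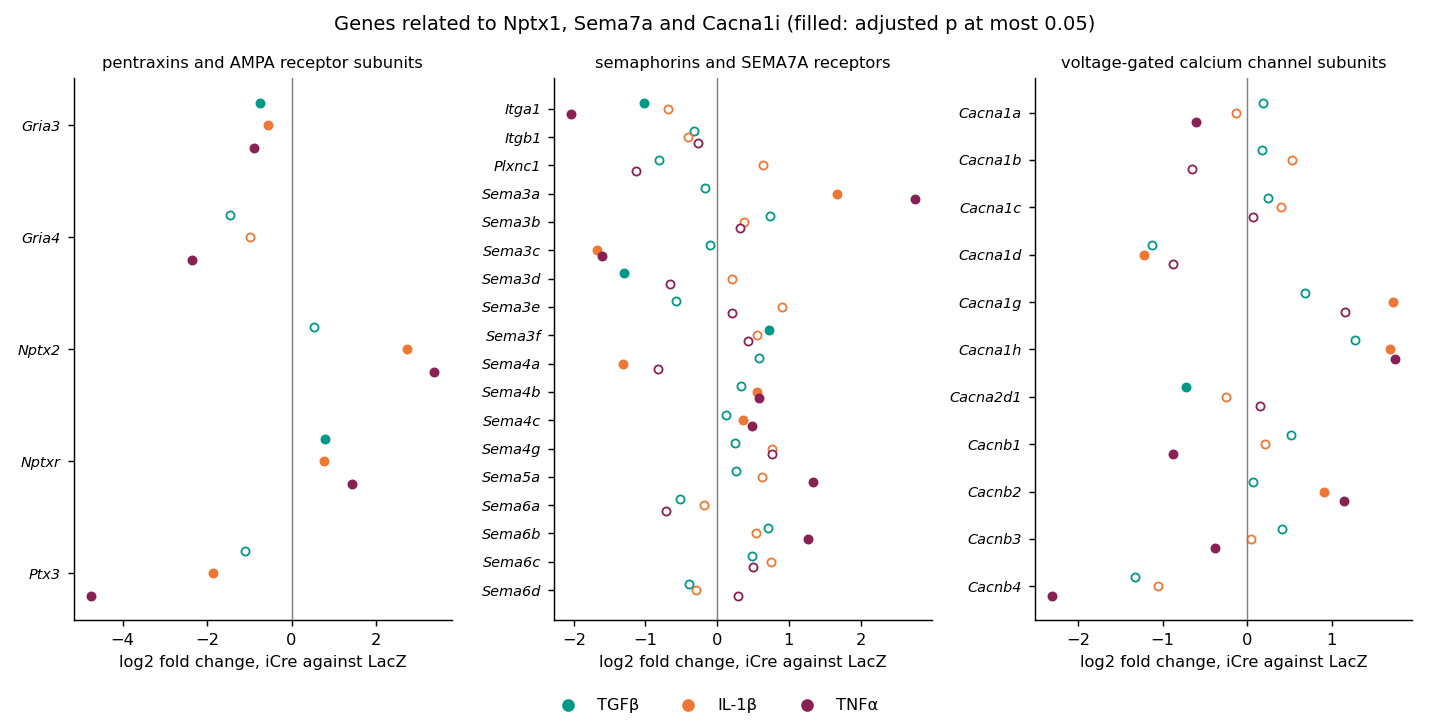
Log2 fold change of iCre against LacZ (x axis) with TGFβ, IL-1β and TNFα for 34 genes related to the 3 described here (y axis), those at 1 CPM or more on average, with filled symbols for an adjusted p of at most 0.05. Nptx2, Nptxr, Sema3a, Cacna1h and Cacnb2 lie to the right with both cytokines, and Ptx3, Gria3 and Sema3c to the left.

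The genes next to each locus were also followed. They were not chosen by their values, unlike the 3 genes, so the sizes of their changes are not set against each other. Of the 3 nearest protein-coding genes on each side of each gene, 18 in all, 0 were called in iCre against LacZ in CTRL, bFGF or TGFβ. At an unadjusted p under 0.05 there were 5, 3 and 4 (14%, 10.3% and 21.2% of all genes), and DESeq2 called 3, 3 and 2 (8.88%, 3% and 26.7% of genes with an adjusted p). With IL-1β 4 were higher and 1 lower, beside 7.14% and 8.98% of all genes, and with TNFα 6 higher and 1 lower, beside 14.8% and 12.6%. With the replicate block 3, 4, 3 and 9 of the 18 were called in CTRL, bFGF, TGFβ and IL-1β, beside 14.5%, 13.9%, 20.8% and 29.5% of all genes. Beside Nptx1, with TNFα, Rptor, a subunit of the mTORC1 complex, rose by 0.46 (SE 0.10) and Slc26a11 by 0.49 (SE 0.14), and Rnf213 fell by 2.08 (SE 0.22), from 1329 ± 236 to 309 ± 87.6 CPM. The starts of these genes lie 55.2, 192 and 155 kb from that of Nptx1. Beside Sema7a, Ubl7 at 29.1 kb rose by 0.47 (SE 0.09) and the splicing kinase gene Clk3 at 174 kb by 0.29 (SE 0.07). Beside Cacna1i, Rps19bp1 at 22.9 kb rose by 0.55 (SE 0.11), and the stress response factor Atf4 at 32.1 kb differed by −0.13 without passing. Enthd1, the remaining gene called higher, had no counts in LacZ with TNFα and a mean of 0.0895 CPM in iCre, so its fitted log2 fold change (4.71, SE 1.17) rests on the prior count.

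**Figure D5:**
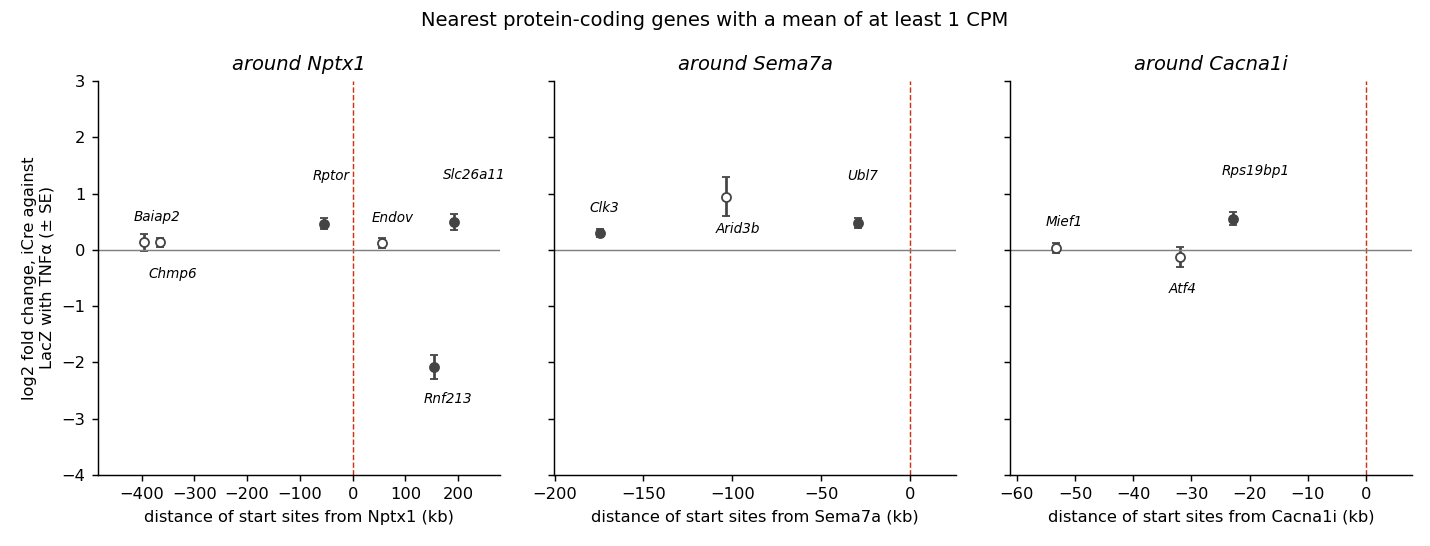
Log2 fold change of iCre against LacZ with TNFα (y axis, ± SE) for the 12 of 18 neighbouring protein-coding genes that averaged 1 CPM or more, against the distance of their start from that of Nptx1, Sema7a or Cacna1i (x axis, kb, positive downstream), with filled circles for an adjusted p of at most 0.05 and a dashed line at the start of the gene. The plotted neighbours lie between −2.08 (Rnf213) and 0.95 (Arid3b), and those under 1 CPM, Enthd1 among them, are left out.

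Over the 40 libraries, the log2 CPM of Nptx1 and Cacna1i had a Pearson correlation of 0.90, that of Nptx1 and Sema7a 0.75 and that of Sema7a and Cacna1i 0.66. These are descriptions, since the libraries share groups, replicate numbers and the values that chose the genes. Among 12299 other expressed protein-coding genes, the patterns most like Nptx1 were those of Fez1 (0.93), which acts in axon growth, Adgra2 (0.93), an adhesion receptor, and Nxph3 (0.92), a neurexin ligand. Those most like Sema7a were Dusp5 (0.96), a nuclear ERK phosphatase, Ank (0.94), a membrane protein of pyrophosphate export, and Tmem231 (0.92), a protein of the ciliary base. For Cacna1i they were Mtcl1 (0.90), which binds microtubules, Nptx1 itself (0.90) and Galnt12 (0.90), a glycosyltransferase. Fez1 ran from 23.2 ± 1.5 CPM in LacZ with TGFβ to 180 ± 50.4 CPM in iCre with TNFα, and Ank from 81.7 ± 13.3 CPM in LacZ with TNFα to 1078 ± 349 CPM in iCre with TNFα.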

How the data were processed

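RNA-seq was done on 40 libraries of mouse cardiac fibroblasts, 4 per group. The values are raw read counts per gene, which the authors deposited in 1 table after alignment to mm10 (GRCm38) with STAR and counting with HTSeq 0.10.0. The annotation release and the strand setting are not given in the sources used here. The methods name a stranded library kit and the labels another kit. Gene positions and lengths were taken from GENCODE M21, which held 52133 of the 55414 identifiers and 99.59% of the counts.

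The 3 genes and all gene lists were chosen with earlier results of these data known. Genes with at least 10 counts in total (25210) were tested with edgeR 4.0.16 (quasi-likelihood test, TMM scaling, R 4.3.3) on the 8 libraries of each comparison, or 16 for a difference of effects. P-values were adjusted over all genes by the Benjamini-Hochberg method, with a threshold of 0.05. CPM are counts scaled to the library total after TMM scaling. SE is the log2 fold change divided by the square root of F. Genes named beside the 3 were those of each list with a mean of at least 1 CPM that passed the threshold, the direct partners (Nptx2, Nptxr, Plxnc1, Itga1, Itgb1, Cacna1g, Cacna1h and the 3 nearest protein-coding genes on each side), and the 3 most correlated genes of each. Enthd1, Cacna1e and the genes listed as under 10 counts fall outside this rule and were named after their values were seen.

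Replicate numbers paired the samples. The labels do not say what same-numbered replicates share, but their deviations from group means correlated in every compared pair (lowest 0.361, mean 0.575, against −0.159 for other numbers, 10774 genes), so the block is printed where it changes a call of the 3 genes. For the related and neighbouring genes it is printed mainly as a count. The alternatives were DESeq2 1.42.0, other filters, a GC correction, all 40 libraries in 1 fit, the block and leaving out each replicate. Libraries of a group differed by more than sampling noise (chi-square per degree of freedom of 15.9 to 332). Scripts were tested on simulated counts. Python 3.11.15 was used for summaries.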

Additional observations from a re-analysis of the deposited data

Results flagged for a closer look

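In 3 of the 30 groups formed by a gene and a treatment, 1 of the 4 libraries stood apart from the rest by Dixon's criterion, which chance meets in about 1 in 20 groups. Replicate 2 of LacZ without ligand was at 13.9 CPM for Nptx1, where the other 3 libraries held 2.48 to 3.89 CPM. The same library was at 4.06 CPM for Sema7a, where the others held 1.48 to 1.86 CPM. For Cacna1i, replicate 4 of iCre with IL-1β was at 3.72 CPM, where the others held 1.78 to 2.08 CPM.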

How the results depend on the processing

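Of the tested values of the 3 genes recomputed under an alternative, 290 kept their side of the threshold and direction, 50 passed only under the alternative, 8 no longer passed and 0 reversed. Of the untested IL-1β and TNFα values 159 moved by less than the spread between replicates and 1 by more, and of the counts of related genes 39 stayed within 1.5 times and 26 did not. RLE scaling, no filter and protein-coding genes only changed no tested call of the 3 genes and moved no count of related genes by over 1.5 times. Raw library sizes were tried only on the untested IL-1β and TNFα values of the 3 genes, which moved by less than the spread between replicates. Cacna1i could not be fitted with edgeR's stricter filter in iCre against LacZ with TGFβ or TGFβ against CTRL in LacZ, and DESeq2 gave it no adjusted p in the first of these. The cause of the changes below was not tested. At 3 to 17 summed counts per group, depth limits what can be said of Cacna1i in LacZ without bFGF.

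With the replicate block, values that then passed were, for iCre against LacZ, 3.94 (CTRL), 2.27 (bFGF) and 2.09 (TGFβ) for Nptx1, 2.76 and 2.15 (CTRL, bFGF) for Sema7a and 3.96 and 0.60 for Cacna1i, and for bFGF against CTRL in iCre 1.63, 1.68 and 2.16, and for TGFβ against CTRL in iCre 1.36 for Sema7a. The block changed no other call of the 3 genes. With a GC correction and the block these were 3.91, 2.24 and 1.86, 2.71 and 2.08, 3.91 and 0.52, then 1.66, 1.73 and 2.23, and 1.15. With DESeq2 they were 3.88, 2.43 and 2.25 for Nptx1, 2.86 and 2.38 for Sema7a and 3.92 for Cacna1i in CTRL, then 1.58, 1.79 and 2.21, and 1.42. With all 40 libraries they were 3.86, 2.42 and 2.30, 2.84 and 2.37, and 3.92, then 1.78 for Sema7a and 2.21 for Cacna1i, and 1.42. With the GC correction alone Sema7a with TGFβ no longer passed (2.01).

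Of the 44 related genes, the test called 1, 0, 6, 13 and 19 in CTRL, bFGF, TGFβ, IL-1β and TNFα (0.0754%, 0%, 8.37%, 16.1% and 27.3% of all genes). DESeq2 called 4, 1 and 10 in the first 3 (8.88%, 3% and 26.7% of genes with an adjusted p). The block called 16, 21, 22 and 29 in the first 4 (14.5%, 13.9%, 20.8% and 29.5% of all genes). The GC correction called 0 with TGFβ and 8 with IL-1β, that correction and the block together 17, 19, 14 and 22, and all 40 libraries 1 with bFGF. Leaving out 1 replicate gave 0 to 6, 0 to 5, 1 to 12, 4 to 17 and 7 to 19. The same fits called 0% to 1.51%, 0% to 0.52%, 0.0635% to 4.08%, 1.82% to 7.81% and 6.38% to 13.8% of all genes higher.

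Without 1 replicate the log2 fold changes of results whose call changed, or which moved by over 1.5 times, ran as follows. Differences of effects between treatments, none of them called, are left out. For iCre against LacZ in CTRL they were 3.59 to 4.37 for Nptx1 and 2.57 to 2.98 for Sema7a. For iCre against LacZ with bFGF they were 2.28 to 2.53 for Nptx1 and 1.89 to 2.86 for Sema7a. For iCre against LacZ with TGFβ they were 1.71 to 2.66 for Nptx1 and 1.63 to 2.59 for Sema7a. For bFGF against CTRL in LacZ they were 2.52 to 4.07 for Nptx1, 2.05 to 2.47 for Sema7a and 5.15 to 6.08 for Cacna1i. For IL-1β against CTRL in LacZ they were −2.74 to −1.38 for Nptx1 and −1.30 to −0.50 for Sema7a, for TNFα against CTRL in LacZ −2.01 to −1.06 for Nptx1, and for TGFβ against CTRL in LacZ −3.24 to −1.76 for Nptx1. For bFGF against CTRL in iCre they were 0.99 to 2.23 for Nptx1, 1.36 to 2.43 for Sema7a and 1.84 to 2.6 for Cacna1i. For TGFβ against CTRL in iCre they were 0.88 to 2.06 for Sema7a, and for TNFα against CTRL in iCre 0.67 to 1.37 for Cacna1i.

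The correlations of Adgra2 with Nptx1 (0.98), of Dusp5 (0.98), Ank (0.98) and Tmem231 (0.97) with Sema7a, and of Mtcl1 (0.98) and Nptx1 (0.96) with Cacna1i were higher over the 10 group means. That of Ank with Sema7a was also higher once the replicate number was removed (0.97).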
